A study of Mus musculus with 6 samples.

Results

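Carboxypeptidase E (Cpe) and 9 further genes of prohormone processing were followed across the 6 arrays of the series, which profiled melanocyte stem cells sorted from mouse skin. The genes are the carboxypeptidases Cpe and Cpd, the proprotein convertases Pcsk1, Pcsk2, Pcsk6 and Furin, the amidating enzyme Pam, the precursor Pomc and the granins Scg2 and Chga. They were taken as every non-control probe whose RefSeq accession belongs to one of these 10 genes, which gave 14 of 55681 probes, and 10 of the 21368 genes that could be named. The genes were chosen by their place in this pathway and with measured levels of these same arrays in view, which levels not being recorded, so their levels and their difference between genotypes are given as a description.

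The K14-SCF Tg group held 3 samples of a transgenic line whose transgene puts stem cell factor, which binds the receptor KIT, under the keratin 14 promoter, a promoter of basal keratinocytes. The WT group held 3 wild-type samples. All samples came from male mice and were GFP-positive cells of low side scatter, labelled as melanocyte stem cells, and neither the ages nor the reporter that gives the GFP signal are stated in the sources used here. The labels number the replicates without saying whether each came from its own animal, so the spread behind the p-values may be technical. Levels are log2 ratios of a probe's processed signal to the 75th percentile of its array, and a log2 difference is K14-SCF Tg minus WT. Probes differ in how they bind, so levels of different probes are not set against each other.

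Peptide hormones and neuropeptides are made as larger precursors. In the secretory pathway, convertases cut the precursor after basic residues, carboxypeptidases trim those residues from the new C-terminus, and Pam turns a C-terminal glycine into an amide. Granins help to form the dense-core granules in which the finished peptides are stored. In skin the best known product is alpha-MSH, cut from the Pomc precursor, which acts on the melanocortin receptor Mc1r of melanocytes to raise pigment synthesis, while Furin works in nearly all cells and also cuts the melanosome protein Pmel.

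Between 78.4% and 87.1% of these 55681 probes exceeded background clearly on an array, and 0 were saturated. All 8 pigment lineage markers (Kit, Mitf, Sox10, Dct, Tyr, Tyrp1, Pmel, Mlana) were above background on all 6 arrays, as were 7 of 7 leukocyte, 7 of 8 keratinocyte, 7 of 8 fibroblast and 6 of 8 Schwann cell markers, so detection alone does not single out the pigment lineage. The pigment markers' summed linear level was 254 to 304 in K14-SCF Tg and 254 to 343 in WT. Of 8 markers of Merkel cells, the neuroendocrine cells of the epidermis, 4 (Krt20, Krt18, Piezo2 and Rab3c) were above background on all 6 arrays and 2 (Atoh1 and Isl1) on no array. The summed level of the 8 was 4.42 to 4.80 in K14-SCF Tg and 4.14 to 4.69 in WT. Most of this sum came from 1 Rab3c probe, with mean log2 levels of 1.92 in K14-SCF Tg and 1.84 in WT. The sum therefore says little about the other markers. Of 5 tested markers, 2 had a positive log2 difference and 3 a negative one. Insm1 had the largest (2.13, SE 1.25), with overlap, but was above background on only 2 K14-SCF Tg arrays and 1 WT array. Krt8 was above background on 1 K14-SCF Tg array and 0 WT arrays. Arrays within K14-SCF Tg correlated on average at 0.928 over the tested probes, those within WT at 0.912, and those between genotypes at 0.918. WT replicate 1 was hybridised on a separate slide, scanned apart from the other 5 arrays, and replicate 3 of both genotypes lay in row 2 of the other slide.

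Cpe was higher on all 3 K14-SCF Tg arrays than on any WT array, at each of its 3 probes. Carboxypeptidase E is the carboxypeptidase of the regulated secretory pathway, where it removes the basic residues that the convertases leave behind. The brightest probe (A_55_P2025038) read 4.65, 4.91 and 4.73 in K14-SCF Tg replicates 1 to 3, against 3.37, 3.42 and 3.58 in WT replicates 1 to 3. The lowest K14-SCF Tg array lay 1.07 above the highest WT array on the log2 scale, a gap wider than the whole range within either genotype. The means were 4.76 ± 0.13 in K14-SCF Tg and 3.46 ± 0.11 in WT (SD, n = 3 each), a log2 difference of 1.31 with an SE of 0.21, or 2.47-fold.

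The second Cpe probe (A_55_P2024704) read 3.84, 4.25 and 3.86 in K14-SCF Tg, against 2.51, 2.48 and 2.66 in WT. Its log2 difference was 1.44 (SE 0.23), or 2.71-fold. The third (A_55_P2152248) read 1.44, 2.19 and 1.67 in K14-SCF Tg, against 0.13, -0.54 and 0.30 in WT, a log2 difference of 1.80 (SE 0.34), or 3.49-fold. All 3 probes were well above background on all 6 arrays, and K14-SCF Tg replicate 2 was the highest array at each. Over the 6 arrays the probes correlated pairwise at 0.996, 0.964 and 0.974 (Pearson, across arrays that share their RNA between probes). The gap between genotypes at each probe by itself makes these correlations high, so they add little to it. In the fit over all 47704 tested probes the Cpe differences did not pass (limma, adjusted p = 0.433, 0.433 and 0.537). Not overlapping between genotypes was no rarity on these arrays: 5.63% of all tested probes were higher on every K14-SCF Tg array, and 2.57% were so with a log2 difference of at least 1.

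**Figure D1:**
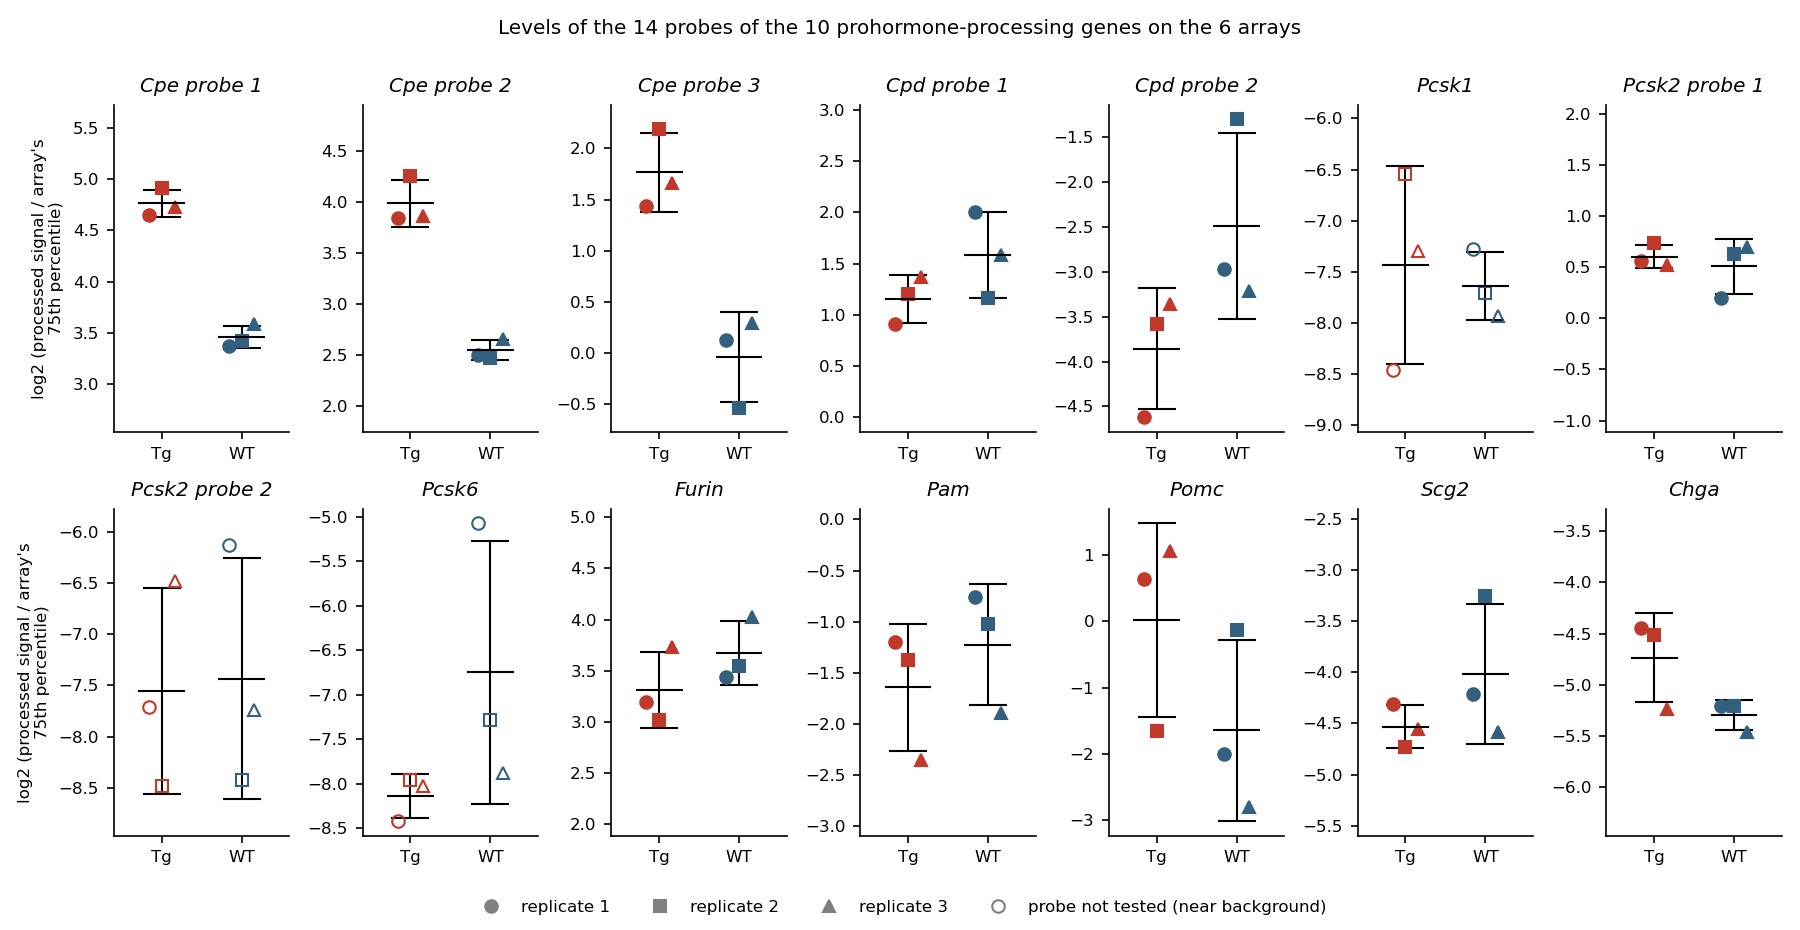
Level of each of the 14 probes on each array, as the log2 ratio of processed signal to the 75th percentile of the array (y axis, with its own range per panel), for K14-SCF Tg (left, red) and WT (right, blue), with the mean (line) and SD (bars, n = 3); symbols give the replicate number and open symbols mark probes that were not tested. The 3 Cpe probes separate the genotypes, the brightest at 4.65 to 4.91 in K14-SCF Tg and 3.37 to 3.58 in WT, while Furin and Pam follow replicate 3 within both genotypes.

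Of 18 alternatives, 5 leave the log2 difference as it is by construction, and slide as a block gives the same difference as leaving out WT replicate 1. Over the 12 distinct refits that can move it, the log2 difference of Cpe lay between 1.22 and 1.42 at the brightest probe, 1.30 and 1.56 at the second and 1.55 and 2.02 at the third. It was 1.26, 1.41 and 1.89 within the slide of the 3 K14-SCF Tg arrays and WT replicates 2 and 3, and 1.39, 1.56 and 2.02 without both arrays of slide row 2. None of the 18 alternatives called a Cpe probe (limma, adjusted p between 0.228 and 0.748).

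**Figure D2:**
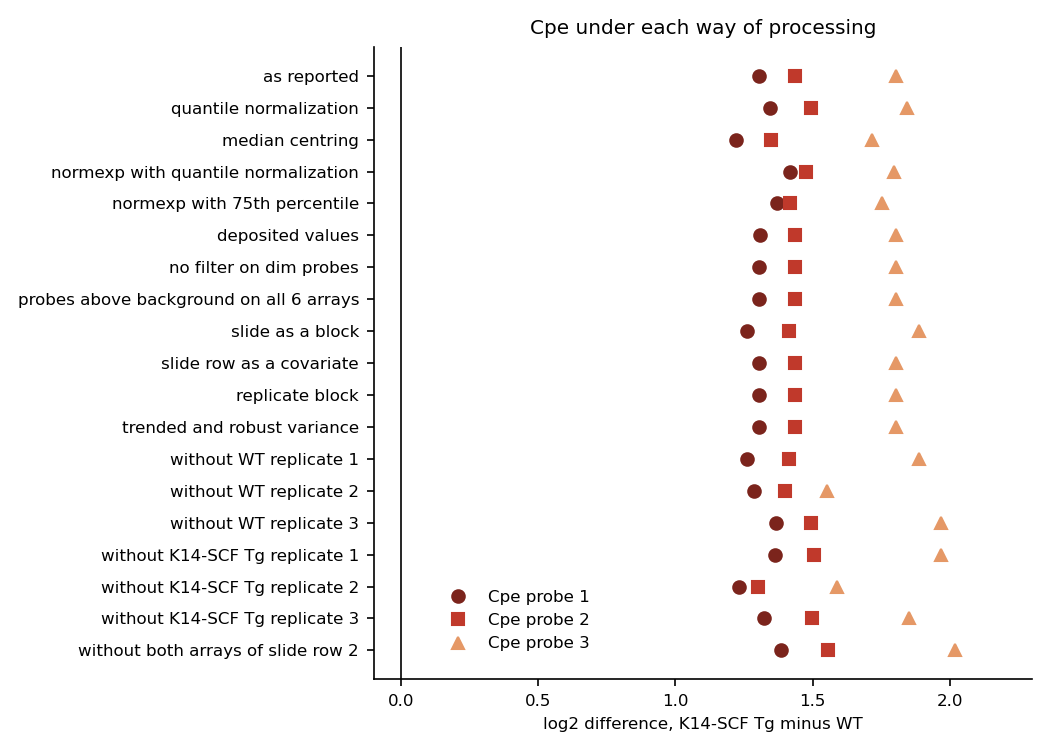
Log2 difference of each Cpe probe, K14-SCF Tg minus WT (x axis), under the reported setting (top) and each of 18 alternatives (rows). The points lie between 1.22 and 2.02, 5 of the alternatives repeat the reported value by construction, and slide as a block repeats the difference without WT replicate 1.

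Cells other than melanocyte stem cells can carry Cpe, and the summed level of 1 marker list separated the genotypes. Summed over 8 fibroblast markers, the linear level was 8.95 to 22.3 in K14-SCF Tg and 26.1 to 71.1 in WT, without overlap and opposite in direction to Cpe. The collagen genes Col1a1, Col1a2 and Col3a1 made up most of this sum on every array. Of these 8 markers, 7 had a negative log2 difference and 7 were above background on all 6 arrays. The median log2 difference of the 8 was -1.71. Taken singly, 3 were lower without overlap (Col1a2, Col3a1 and Thy1), and the genotypes overlapped at the others. Pdgfra, above background on 2 arrays of each genotype, had the opposite sign (1.26, SE 0.97). Col1a2, a chain of type I collagen, stood at 2.63 ± 0.72 in K14-SCF Tg and 4.50 ± 0.72 in WT (SD, n = 3 each). The part of these cells in the Cpe difference was not tested. In sorted samples of many cells, a change in the number of cells of a type and a change in RNA per cell cannot be told apart.

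Cpd encodes carboxypeptidase D, a membrane enzyme of the trans-Golgi network with the same trimming activity. Its brightest probe read 0.91, 1.20 and 1.37 in K14-SCF Tg, against 2.00, 1.16 and 1.59 in WT. The genotypes overlapped there, and the log2 difference was -0.43 (SE 0.30), or -0.22 without WT replicate 1. The other Cpd probe read -4.62, -3.58 and -3.36 in K14-SCF Tg, against -2.96, -1.30 and -3.21 in WT. Here every K14-SCF Tg array lay below every WT array, but by only 0.15 at the nearest, and 4.71% of all tested probes were lower without overlap. The log2 difference of -1.36 (SE 0.62) rested in part on WT replicate 2, without which it was -0.77. Both Cpd probes thus had the sign opposite to Cpe, and neither passed (limma, adjusted p = 0.972 and 0.929).

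The convertases differed in whether they were detected at all. Pcsk1 and Pcsk2 are the convertases of endocrine and neural granules, where Pcsk1 makes ACTH from Pomc and Pcsk2 cuts further towards alpha-MSH. The Pcsk1 probe was well above background on 0 of 6 arrays, with readings of -8.46, -6.54 and -7.30 in K14-SCF Tg and -7.28, -7.71 and -7.93 in WT. These readings are background and carry no order. Pcsk2 was above background on all 6 arrays at its brighter probe, with 0.56, 0.73 and 0.52 in K14-SCF Tg, against 0.20, 0.63 and 0.70 in WT. The genotypes overlapped and the log2 difference was 0.09 (SE 0.24), changing sign to -0.06 without WT replicate 1 and lying between 0.03 and 0.19 without any other array. The second Pcsk2 probe was above background on no array, so the Pcsk2 level rests on 1 probe.

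Furin, the convertase of the trans-Golgi network, read 3.19, 3.02 and 3.73 in K14-SCF Tg, against 3.44, 3.55 and 4.03 in WT. The genotypes overlapped, with a log2 difference of -0.36 (SE 0.30), and replicate 3 was the highest array of both genotypes. The difference was -0.56 without K14-SCF Tg replicate 3, -0.21 without K14-SCF Tg replicate 2 and -0.18 without WT replicate 3. Pcsk6, a convertase that is secreted and binds to the cell surface and matrix, was above background on 0 K14-SCF Tg arrays and on 1 WT array. WT replicate 1 read -5.07 and the other 5 arrays between -8.42 and -7.28, so no fold is given.

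Promoter sequence is shown for the 2 genes whose window held a searched motif, Pcsk1 and Scg2, and, for comparison, for Pcsk2 and Cpd, whose windows held none. RefSeq promoter windows (GRCm38.p6, read 5′ to 3′ on the gene's strand, 250 bases ending at the base before the start) were found for 9 of the 10 genes, all but Cpe, in 11 windows. They were searched on both strands for 3 motifs: CACGTG, the E-box that factors such as Mitf bind; CATGTG, which reads as CACATG on the other strand, its variant; and TGACGTCA, the cAMP response element. No 2 of these overlap in the windows shown. Capitals mark TGACGTCA.
Pcsk1, chr13:75089607-75089856, plus strand: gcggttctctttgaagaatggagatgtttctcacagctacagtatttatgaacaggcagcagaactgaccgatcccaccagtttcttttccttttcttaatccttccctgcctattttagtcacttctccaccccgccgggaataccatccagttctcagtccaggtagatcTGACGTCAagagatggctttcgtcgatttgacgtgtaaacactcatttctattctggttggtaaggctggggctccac
Scg2, chr1:79440027-79440276, minus strand: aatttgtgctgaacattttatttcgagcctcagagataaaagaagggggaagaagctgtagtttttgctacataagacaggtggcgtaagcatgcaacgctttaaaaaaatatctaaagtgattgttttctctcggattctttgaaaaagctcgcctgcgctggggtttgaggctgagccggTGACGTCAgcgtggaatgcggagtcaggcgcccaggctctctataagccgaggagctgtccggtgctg
Pcsk2, chr2:143545883-143546132, plus strand: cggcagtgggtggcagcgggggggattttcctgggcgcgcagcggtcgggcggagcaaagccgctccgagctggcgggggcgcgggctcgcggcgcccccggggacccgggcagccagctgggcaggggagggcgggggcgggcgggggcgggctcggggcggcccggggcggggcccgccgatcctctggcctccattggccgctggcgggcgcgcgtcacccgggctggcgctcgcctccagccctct
Cpd, chr11:76847009-76847258, minus strand: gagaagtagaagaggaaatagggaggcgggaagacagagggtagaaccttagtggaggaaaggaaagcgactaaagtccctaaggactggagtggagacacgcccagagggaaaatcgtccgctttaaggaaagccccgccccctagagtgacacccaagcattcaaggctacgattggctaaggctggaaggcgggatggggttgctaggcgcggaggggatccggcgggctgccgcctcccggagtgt
TGACGTCA stood in the Pcsk1 window, at position -78 from the start, and in the Scg2 window, at position -68, and in no other of the 11 windows. Cpe was not searched. Of 32851 windows of this length in the table, 1.55% hold it. CACGTG (6.02% of all windows) and CATGTG (12.3%) were in none of the 11 windows. These are matches of letters, with no measurement of binding.

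The remaining enzyme, Pam, which amidates peptides such as alpha-MSH, read -1.20, -1.37 and -2.36 in K14-SCF Tg, against -0.76, -1.02 and -1.89 in WT. The genotypes overlapped, and the log2 difference was -0.42 (SE 0.45). The lowest array of both genotypes was replicate 3, and the 2 arrays of slide row 2 averaged 1.04 below the other 4. The difference was -0.06 without K14-SCF Tg replicate 3, -0.64 without K14-SCF Tg replicate 1, -0.19 without WT replicate 1 and -0.75 without WT replicate 3.

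Pomc, the precursor of ACTH, alpha-MSH and beta-endorphin, had the widest spread of the tested probes of these genes. It read 0.64, -1.65 and 1.06 in K14-SCF Tg, against -2.00, -0.13 and -2.79 in WT. The third and first K14-SCF Tg arrays were the highest, while K14-SCF Tg replicate 2 lay within the WT range. The means were 0.02 ± 1.46 in K14-SCF Tg and -1.64 ± 1.37 in WT (SD, n = 3 each), a log2 difference of 1.66 with an SE of 0.97. This value was 2.49 without K14-SCF Tg replicate 2, 1.08 without WT replicate 3 and 0.56 without both arrays of slide row 2, and it did not pass (limma, adjusted p = 0.949).

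Both granins were above background on all 6 arrays, but not by far. The lowest level above background on an array ranged from -6.58 (K14-SCF Tg replicate 2) to -5.75 (WT replicate 3). Scg2, secretogranin II, read -4.31, -4.73 and -4.55 in K14-SCF Tg, against -4.21, -3.26 and -4.58 in WT, with overlapping genotypes and a log2 difference of -0.51 (SE 0.39). Without WT replicate 2, the 1 array that stood above the rest, it was -0.13, and without WT replicate 3 it was -0.80. Chga, chromogranin A, read -4.45, -4.51 and -5.24 in K14-SCF Tg, against -5.21, -5.21 and -5.46 in WT. The genotypes overlapped by 0.03, and the log2 difference was 0.56 (SE 0.29). With normexp background correction and quantile normalization, the log2 differences were smaller, at -0.28 for Scg2 and 0.29 for Chga.

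Of the 14 probes, 11 passed the filter on dim probes (above background on 3 or more of the 6 arrays, counted over both genotypes) and stood for 8 of the 10 genes. Limma called 0 of these 11 at an adjusted p under 0.05 (adjusted p between 0.433 and 0.999), where 0.0021% of all tested probes, a single Hpse probe, were called. At an unadjusted p under 0.05 it counted 3, the Cpe probes, beside 5.46% of all tested probes. The genotypes did not overlap at 4 of the 11, of which 3 were the Cpe probes (higher) and 1 a Cpd probe (lower). The share over all tested probes was 10.3%. The 3 Cpe probes read 1 gene in the same RNA. Counted by gene at the brightest probe, the genotypes did not overlap at 1 of 8 (Cpe), beside 10.5% of all tested genes. By its brightest probe, each of the 8 genes had a log2 difference that was positive for 4 (Cpe, Pcsk2, Pomc, Chga) and negative for 4 (Cpd, Furin, Pam, Scg2), with a median of -0.13 beside -0.01 over 18364 tested genes.

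**Figure D3:**
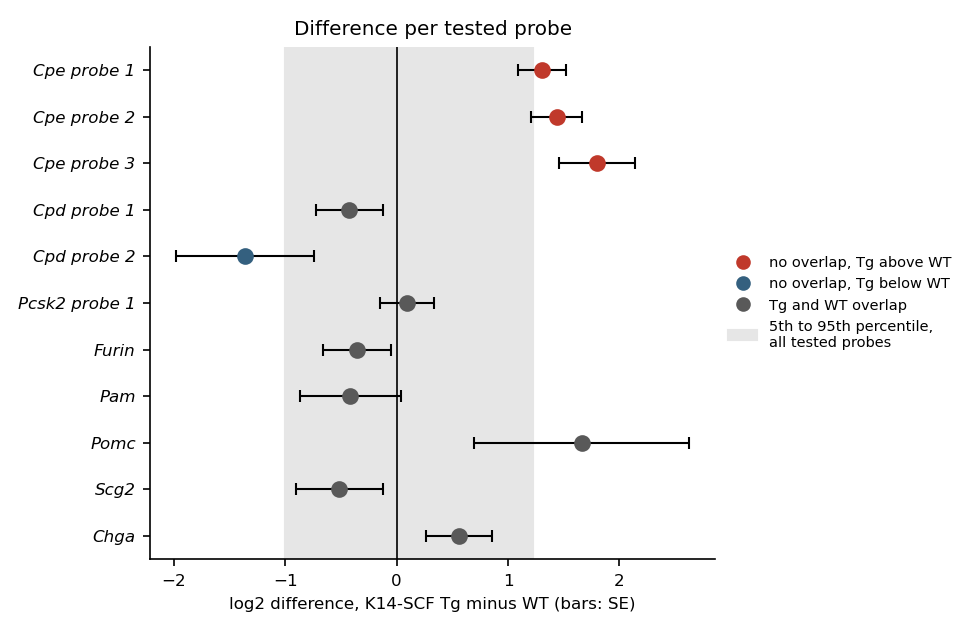
Log2 difference, K14-SCF Tg minus WT (x axis), with its SE for each of the 11 tested probes, coloured by whether the genotypes overlap; the grey band runs from the 5th to the 95th percentile of all tested probes (-1.003 to 1.23). The 3 Cpe probes and Pomc lie right of the band, Pomc with the longest error bar, and 1 Cpd probe lies left of it.

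Further genes of the pathway were taken from 6 lists of 78 genes, of which 63 were tested. Limma called 0 of them in either direction, beside 0.00545% of all tested genes. By the brightest probe, the genotypes did not overlap in 10, of which 6 were higher and 4 lower in K14-SCF Tg, beside 10.5% of all tested genes (5.13% higher and 5.41% lower). Among the other convertases (5 of 5 tested, median 0.64), Pcsk4, known mainly from germ cells, read 0.81, 0.90 and 1.00 in K14-SCF Tg, against 0.42, 0.11 and 0.25 in WT, without overlap. Pcsk7, a widely expressed convertase, had a log2 difference of -0.46 (SE 0.40). Pcsk5, which like Pcsk6 cuts secreted growth factor precursors, split within K14-SCF Tg at its brighter probe: -0.25, 0.04 and -5.08, against -4.93, -5.08 and -4.91 in WT. The other Pcsk5 probe is assigned to a different transcript of the gene. It read between -4.43 and -3.91 in K14-SCF Tg and between -5.11 and -3.94 in WT, with no such split.

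Of the other carboxypeptidases and terminus-modifying enzymes (7 of 8 tested, median -0.06), Cpm, a membrane-bound relative of Cpe, had a log2 difference of 0.86 (SE 0.58), and Cpxm1, a relative thought to lack the enzyme activity, one of -0.06 (SE 0.22). Cpz, a secreted relative that can bind Wnt proteins, was lower without overlap by a small step, at -0.57 ± 0.13 in K14-SCF Tg and -0.31 ± 0.14 in WT (SD, n = 3 each). The list of granins, chaperones and vesicle genes had 7 of 9 tested and a median of 0.15. Scg3, a granin that sorts cargo into granules, read -3.17, -2.92 and -3.00 in K14-SCF Tg, against -4.14, -3.51 and -3.29 in WT, and Ptprn, a membrane protein of dense-core vesicles, stood at -1.38 ± 0.59 in K14-SCF Tg and -2.39 ± 0.41 in WT (SD, n = 3 each). Both were without overlap. Pcsk1n, which encodes an inhibitor of the Pcsk1 protease, had 0.15 (SE 0.25), and Scg5, the chaperone of Pcsk2, -0.42 (SE 0.40). Chgb and Vgf were not tested, with Chgb above background on 1 array of each genotype and Vgf on 0 K14-SCF Tg arrays and 1 WT array.

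Among the other peptide precursors (21 of 28 tested, median 0.17), the widest separation was that of Npy, neuropeptide Y, an amidated peptide of neurons. It read -4.86, -2.26 and -4.22 in K14-SCF Tg, against -0.65, 0.77 and 0.89 in WT. Every array was above background, no array overlapped, and the log2 difference was -4.11 (SE 0.79), or 17.3-fold lower in K14-SCF Tg. It did not pass (limma, adjusted p = 0.542, and between 0.528 and 0.790 over 18 alternatives), and its log2 difference lay between -4.87 and -3.40 over these. Adm, the precursor of the vasodilator adrenomedullin, read 0.58, -0.27 and 0.75 in K14-SCF Tg, against -0.69, -0.34 and -1.33 in WT. Edn2, an endothelin precursor cut by furin-type convertases, read -2.00, -1.27 and -1.84 in K14-SCF Tg, against -3.30, -2.15 and -3.45 in WT. Their log2 differences were 1.14 (SE 0.40) and 1.26 (SE 0.43). Nmu, neuromedin U, had a log2 difference of -0.30 (SE 0.22), without overlap but by only 0.015 at the nearest. Its means of -5.24 in K14-SCF Tg and -4.94 in WT lay near the lowest levels above background. Penk, proenkephalin, had overlapping genotypes (0.68, SE 0.95), and Edn1 and Edn3, the other endothelin precursors, were each above background on 1 array of each genotype and were not tested.

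On the receiving side (10 of 15 tested, median 0.14), Mc1r, the receptor of alpha-MSH, read -1.87, -0.74 and -1.10 in K14-SCF Tg, against -2.34, 0.13 and -2.87 in WT, with the K14-SCF Tg arrays inside the WT range. Ednrb, the endothelin receptor of the melanocyte lineage, was lower without overlap at both of its probes. The brighter read 4.10, 4.16 and 3.91 in K14-SCF Tg, against 4.76, 4.68 and 4.67 in WT. At the other the genotypes lay apart by only 0.062 at the nearest. The log2 differences were -0.65 (SE 0.21) and -0.71 (SE 0.29), and neither passed (limma, adjusted p = 0.822 and 0.914). Of the furin-type substrates (13 of 13 tested, median 0.04), Pmel had a log2 difference of -0.02 (SE 0.30) and Tgfb1, a growth factor released from its precursor by Furin, one of 0.62 (SE 0.47). Notch1, a receptor that Furin cuts on its way to the surface, had 0.45 (SE 0.26) at its brighter probe and -0.05 with overlap at the other. At the brighter probe the genotypes did not overlap, but by only 0.0046 at the nearest.

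**Figure D4:**
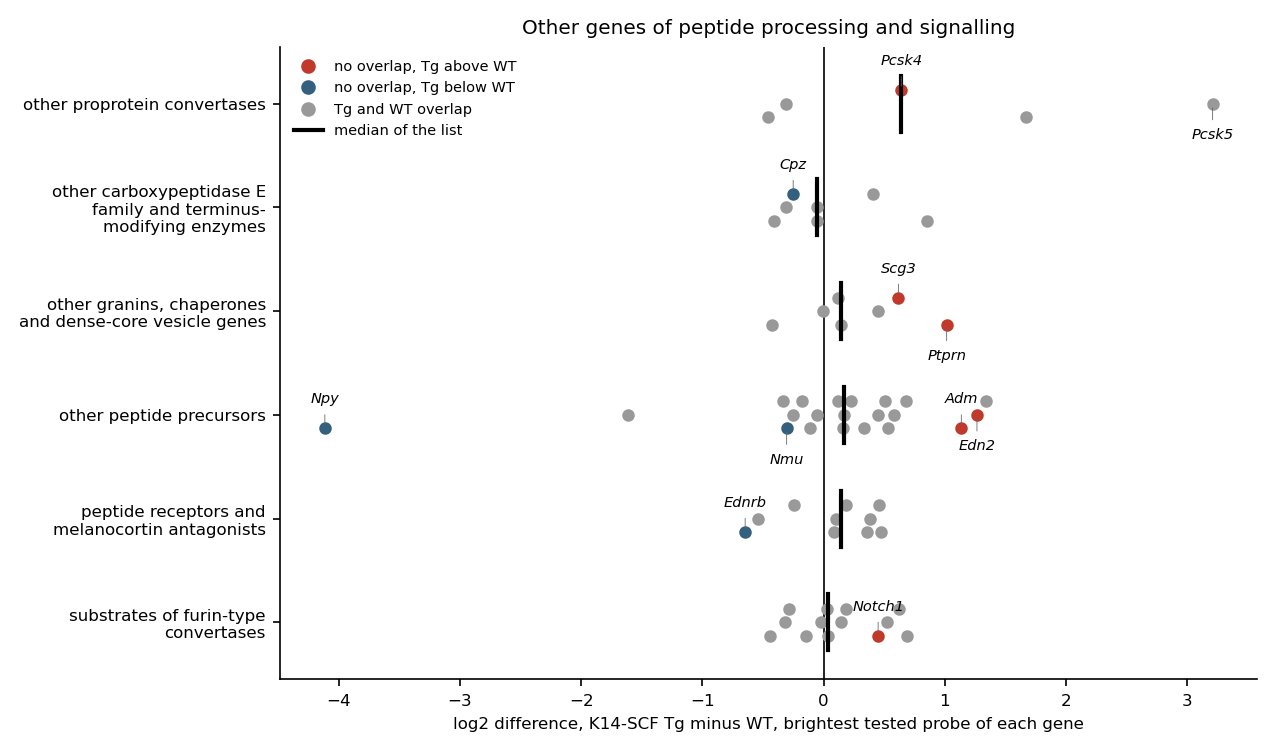
Log2 difference, K14-SCF Tg minus WT (x axis), of the brightest tested probe of each gene in 6 lists of peptide processing and signalling genes (rows), with list medians as black bars; coloured points mark genes whose genotypes do not overlap, and Pcsk5 is labelled for its split. Npy stands apart at -4.11, and the list medians lie between -0.06 and 0.64.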

How the data were processed

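Expression was measured on 6 single-colour Agilent arrays, 3 K14-SCF Tg and 3 WT. Per the file headers, Agilent Feature Extraction 10.7.1.1 quantified the spots of a probe design on build mm9, and the intensity used is the processed signal, background-subtracted and detrended within the array. The deposited flags for background, saturation and outliers were used. The authors' value table holds a linear ratio: in each column, at least 99.7% of values lay within 0.001 of the processed signal over 1 constant, which is close to the array's 75th percentile and which the labels do not define. Column medians were 0.184, 0.188 and 0.176 in K14-SCF Tg and 0.170, 0.177 and 0.169 in WT.

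Control spots and outlier spots were left out and spots of a probe averaged; a probe was above background where most of its spots were. Values were log2 of signal over the array's 75th percentile. Probes were named through RefSeq accessions (28331 of 29786 matched). Probes above background on at least 3 of 6 arrays were tested with genotype alone in the model by the 2-sided moderated test of limma 3.58.1 (R 4.3.3), and p-values were adjusted over 47704 probes by Benjamini-Hochberg, after 3 were left out for an outlier spot. A pathway gene was represented by its brightest tested probe. The number of arrays limits the precision. The steps were tested on data simulated with independent normal noise and no slide or slide row effects. Such data cannot show how well the steps suit these arrays. The genes and lists were chosen with earlier results of these data known. Named pathway genes were 16 fixed ones and all without overlap. Alternatives covered normalization, background, the deposited values, filters, slide, slide row, replicate numbers, variance and leaving out arrays.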

Additional observations from a re-analysis of the deposited data

How the results depend on the processing

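Of 18 alternatives, 5 cannot move a difference, and slide as a block gives the same differences as leaving out WT replicate 1, which is alone on its slide. In the 12 distinct refits, the 132 differences of the 11 tested probes moved by less than the SD between replicates, and the sign changed in 1 (Pcsk2, -0.06). The number of member probes called was 0 under every alternative. Over all probes, the 1 call (Hpse) became 0 with normexp and quantile normalization and with normexp with the 75th percentile. It also became 0 with slide as a block, slide row as a covariate, a trended and robust variance and without both arrays of slide row 2. With only probes above background on all 6 arrays the number called was 0 as well, but that filter left out the Hpse probe, which was not refitted. The number called was 0 to 0 without any 1 array. With the replicate number as a block it was also 0. Same-numbered arrays correlated at 0.019, 0.052 and 0.131 in their deviations, and not every array correlated best with its own number (K14-SCF Tg replicate 1 did so with WT replicate 2, at 0.055), so the numbers were not taken as pairs. Normexp with the 75th percentile and leaving out slide row 2 were chosen after seeing the data. Signal near background leaves Pcsk1, Pcsk6 and 1 Pcsk2 probe without a usable level, and Scg2 and Chga read close to the lowest levels above background.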

Other observations

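Over the 6 arrays, the genes whose pattern was most like that of the brightest Cpe probe, out of 16134 above background on all 6 arrays, were Vars, Fcho1, Gm35953, Gfra4 and Dmrt3, with Pearson correlations between 0.979 and 0.989. Since the Cpe levels separate the genotypes, genes picked for this likeness do so as well, and their log2 differences lay between 0.26 (Gfra4) and 1.13 (Fcho1). In all, 34 genes reached a correlation of at least 0.95 with Cpe, over points that share their arrays.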
